A study of Mus musculus with 13 samples.

Results

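The genes described here set which fast transmitter a neuron releases and how its inhibitory synapses are built. They are Gad1, Gad2, Slc32a1, Slc6a5, Slc6a9, Glra1, Gphn, Slc17a6 and Slc17a7, which is 9 of the 18193 genes with a symbol on the array. They were chosen by symbol, and all 20 probe sets that carry 1 of these symbols were read. RNA from mouse tissue was hybridised to Affymetrix arrays, 1 array per sample and 1 mouse per sample, and every tissue was untreated. Ptch1 MB is primary medulloblastoma, a cerebellar tumour, from Ptch1(+/-) mice (6 samples), in which loss of the Hedgehog receptor Ptch1 gives rise to the tumour. P7 GNPC is granule neuron precursor cells of the postnatal cerebellum of wildtype mice (3 samples), taken at P7. E16.5 DBS is dorsal brainstem of wildtype embryos (4 samples). The age and strain of the tumour mice, the part of Ptch1 that is inactivated and the way GNPC were isolated are not given in the sources used here, and a Ctnnb1 tumour group of the same series was not analysed here. Age and tissue differ together between GNPC and DBS, and the labels name no batch, which means that a batch and a group cannot be told apart. Tumours differ from both normal groups in disease state and Ptch1 genotype at once, and from DBS in tissue as well. These differences, and any difference in age, cannot be told apart either.

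GABA is made from glutamate by the glutamate decarboxylases, encoded by Gad1 and Gad2. The vesicular transporter encoded by Slc32a1 loads both GABA and glycine into synaptic vesicles. Glycine is recovered into glycinergic terminals by the transporter encoded by Slc6a5, while Slc6a9 encodes the glycine transporter that is found mainly on glia. Glra1 encodes a subunit of the glycine receptor, and gephyrin, encoded by Gphn, anchors glycine and GABA-A receptors beneath the membrane. Glutamate is loaded by the vesicular transporters encoded by Slc17a6, the main form in brainstem and in immature neurons, and Slc17a7, the form of mature granule and cortical neurons. In the cerebellum, granule neurons release glutamate, Purkinje cells and most interneurons release GABA, and Golgi cells can release glycine as well. The dorsal brainstem holds many GABA, glycine and glutamate neurons.

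The promoters of the genes on which the comparisons turn are shown so that the 4 genes of inhibitory transmission can be read beside Slc17a6. Each line is the 250 bases before an annotated RefSeq start on GRCm38.p6, forward strand, 5′ to 3′. Capitals mark each E-box (CANNTG, which reads the same on both strands), the letters recognised by basic helix-loop-helix factors such as Ptf1a and Atoh1, and in Gad2 also a match to the core of the RE1 element bound by the repressor REST.
Gad1, chr2:70561879-70562128: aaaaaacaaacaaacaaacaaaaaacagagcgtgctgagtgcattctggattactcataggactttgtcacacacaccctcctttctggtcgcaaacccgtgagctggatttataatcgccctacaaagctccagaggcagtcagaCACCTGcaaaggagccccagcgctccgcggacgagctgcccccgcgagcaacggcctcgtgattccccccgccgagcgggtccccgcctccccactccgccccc
Gad2, chr2:22622077-22622326: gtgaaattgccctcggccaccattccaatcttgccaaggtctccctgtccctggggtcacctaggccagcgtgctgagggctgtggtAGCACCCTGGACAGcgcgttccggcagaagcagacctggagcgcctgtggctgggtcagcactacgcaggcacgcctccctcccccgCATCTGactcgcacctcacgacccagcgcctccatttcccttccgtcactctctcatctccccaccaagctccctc
Slc32a1, chr2:158610508-158610757: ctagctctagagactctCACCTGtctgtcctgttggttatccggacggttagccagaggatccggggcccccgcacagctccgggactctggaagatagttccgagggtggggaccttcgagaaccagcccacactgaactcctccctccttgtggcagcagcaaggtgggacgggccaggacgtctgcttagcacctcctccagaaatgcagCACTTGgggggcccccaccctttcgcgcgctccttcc
Slc6a5, the first of its windows, chr7:49910049-49910298: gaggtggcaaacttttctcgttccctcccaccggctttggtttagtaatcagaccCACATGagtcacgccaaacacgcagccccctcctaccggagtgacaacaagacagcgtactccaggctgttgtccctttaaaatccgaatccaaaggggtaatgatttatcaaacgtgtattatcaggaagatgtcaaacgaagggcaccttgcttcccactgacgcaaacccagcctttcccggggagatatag
Slc17a6, the first of its windows, chr7:51621580-51621829: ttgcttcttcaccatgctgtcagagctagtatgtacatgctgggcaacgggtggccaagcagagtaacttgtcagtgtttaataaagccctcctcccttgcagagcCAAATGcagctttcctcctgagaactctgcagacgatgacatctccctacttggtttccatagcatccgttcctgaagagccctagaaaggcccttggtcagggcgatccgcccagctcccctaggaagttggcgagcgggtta
All 5 windows hold an E-box, as do 66.2% of the 32851 promoter windows of that length. The E-boxes start 104 bases before the start site in Gad1, 76 in Gad2, 233 and 37 in Slc32a1, 195 in Slc6a5 and 144 in Slc17a6. The variant CAGCTG, present in 4271 of the 32851 windows, is in none of these 5. The RE1 core was searched on both strands as AGCACC and GGACAG separated by any 2 bases, and is in 15 of the 32851 windows (0.0457%), 1 of which is that of Gad2, where AGCACCCTGGACAG starts 163 bases before the start site and does not overlap the E-box. These matches describe the letters in the windows and do not show that a factor binds. RefSeq windows were matched for 8 of the 9 genes, Glra1 having no entry.

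Values are linear array intensities. Array medians ran from 91.3 to 117.5, and a probe set had to lie above the median of its own array in at least 3 of the 13 arrays to be tested. Of the 20 probe sets 14 did so and 6 did not, and 8 of the 9 genes had at least 1 that did. Slc17a7 had none. Each tested gene is represented by its probe set with the highest mean. Differences are given as log2(intensity + 18) with the standard error (SE) of a limma fit, and a call needed both an adjusted p (Benjamini-Hochberg, over all 12270 genes tested) under 0.05 and a difference of at least 2-fold.

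Between Ptch1 MB and GNPC, Gad1, Gad2, Slc32a1 and Slc6a5 fell in the tumours, and Slc6a9, Glra1, Gphn and Slc17a6 were not called. That is 4 of 8 genes called, all lower, beside 20.8% of all genes called in this comparison and 14.2% called lower. Between Ptch1 MB and DBS, 7 of 8 fell and only Gphn was not called, beside 36.3% of all genes called and 20.9% called lower. Between GNPC and DBS, Slc6a5, Glra1 and Slc17a6 were lower in GNPC, which is 3 of 8 beside 18.4% of all genes called and 9.68% called lower. No member was called higher in any of the 3 comparisons, beside 6.59%, 15.5% and 8.73% of all genes. The groups did not overlap in 5, 7 and 4 of the 8 genes, beside 44.9%, 56.1% and 55.9% of all genes. Of the 14 probe sets tested singly, 6, 11 and 4 were called, all lower, beside 18.3%, 34.2% and 17.5% of all probe sets. The median difference of the 8 genes was -2.15, -3.71 and -0.84 in the 3 comparisons, beside -0.03, 0.00 and 0.04 for all genes. In the probe sets that represent them, no tumour was above its array median for Slc6a5 or Glra1, and only 2 were for Gad2 and for Slc32a1. These genes thus passed the filter of 3 arrays only because of normal samples. The counts therefore describe the members and are no separate evidence. Both tumour comparisons share the 6 tumour arrays.

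**Figure D1:**
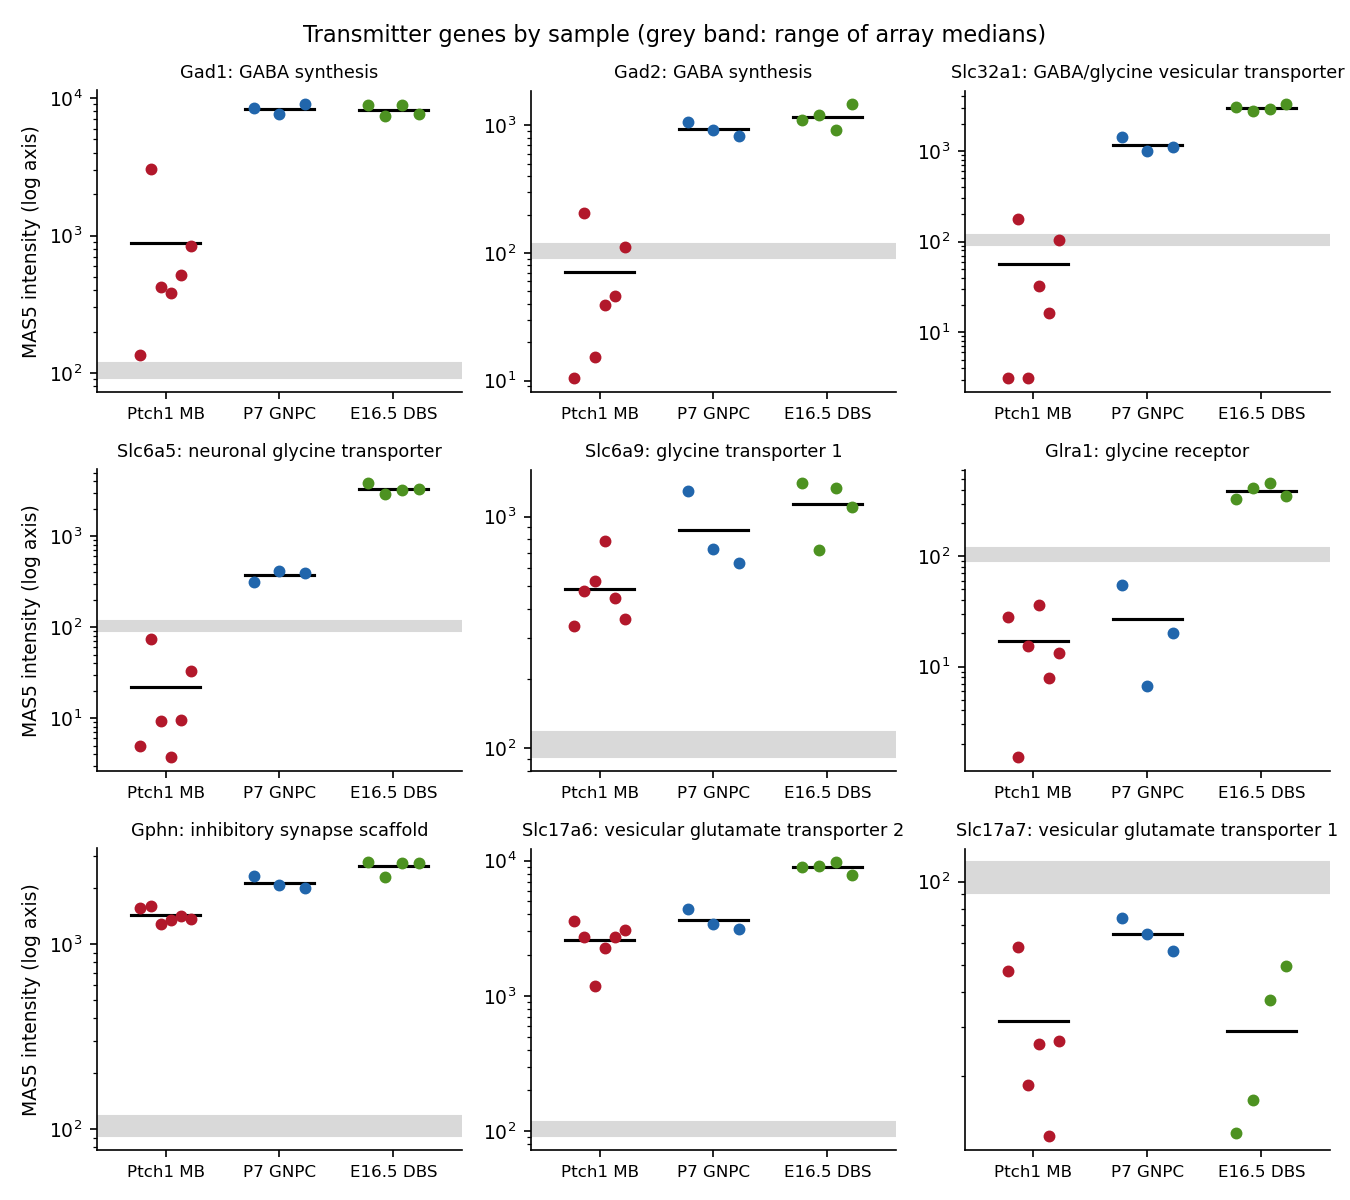
Array intensity (log axis) of each of the 9 genes in every sample, grouped as Ptch1 MB (6), P7 GNPC (3) and E16.5 DBS (4). Points are samples, black lines are group means, and the grey band is the range of array medians. Gad1, Gad2, Slc32a1 and Slc6a5 are lower in every tumour than in every normal sample, Glra1 is above the band only in DBS, and Slc17a7 is below it in all 13 samples.

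Gad1, which makes most of the basal GABA pool, was bright in both normal tissues and far lower in the tumours. Its probe set 1416561_at read 8457.7, 7643.2 and 9017.2 in the 3 GNPC samples and 8848.9, 7365.4, 8905.2 and 7631.8 in the 4 DBS samples. In the 6 tumours the lowest value was 134.3, the median 469 and the highest 3038.4. The highest tumour, tumour 2, was still below every normal sample, and the normal tissues overlapped. Gad1 fell 14.5-fold in tumours relative to GNPC (-3.85 ± 0.60, adjusted p = 0.000122) and 14.1-fold relative to DBS (-3.82 ± 0.55, adjusted p = 1.92e-05). GNPC minus DBS was 0.03 ± 0.65 (adjusted p = 0.971), with a sign that turned in 3 alternatives and with a wide error because the tumours' spread enters the shared estimate. The second probe set, 1416562_at, was dimmer and was also called lower in tumours (-3.03 ± 0.65 against GNPC and -2.38 ± 0.59 against DBS). It passed the filter only through normal samples, every tumour being under its array median. In this probe set the sample DBS 2 read 29.1 while the other DBS samples read 297.9 to 447.4, and that sample lay within the range of the tumours.

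Gad2, the decarboxylase concentrated at nerve terminals, was likewise bright in both normal tissues and low in the tumours. GNPC read 1063.4, 922.3 and 826.7 and DBS read 1093.8, 1206.1, 928.3 and 1465.9 for 1429589_at. The tumours ran from 10.4 through a median of 42.8 to 206.8, and 4 of the 6 lay below their own array's median. No tumour reached the normal range. Gad2 fell 13.9-fold relative to GNPC (-3.80 ± 0.50, adjusted p = 2.89e-05) and 17.2-fold relative to DBS (-4.11 ± 0.46, adjusted p = 1.34e-06), and GNPC minus DBS was -0.31 ± 0.54 (adjusted p = 0.674). With 1 or 64 as the added constant the tumour differences were -4.38 and -3.04 against GNPC and -4.69 and -3.33 against DBS. The dimmer probe set 1421978_at was called lower in tumours in both comparisons as well (-1.04 ± 0.30 and -1.61 ± 0.27). It passed the filter only through 3 DBS samples, every tumour and GNPC value being under its array median, so it is no separate evidence.

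Slc32a1, whose transporter serves GABA and glycine neurons alike, separated all 3 groups without overlap. Its probe set 1422756_at read 3067.6, 2734.3, 2879.8 and 3287.4 in DBS and 1424.1, 1007.6 and 1108.1 in GNPC. In the tumours it ran from 3.1, the value of both tumour 1 and tumour 3, through a median of 24.5 to 177.8. Only tumour 2 was clearly above the range of array medians. The gene fell 23.1-fold relative to GNPC (-4.53 ± 0.57, adjusted p = 2.04e-05) and 58.4-fold relative to DBS (-5.87 ± 0.52, adjusted p = 1.24e-07). With 4 of the 6 tumours below their array's median, the size of these falls moves with the added constant, from -5.61 with 1 to -3.54 with 64 against GNPC and from -6.97 to -4.85 against DBS. GNPC minus DBS was -1.34 ± 0.62, which was not called with the spread of all 3 groups (adjusted p = 0.0907) and was called in a fit of these groups alone (-1.34, adjusted p = 2.1e-05). The 3 other probe sets of Slc32a1 were never above an array median and were not tested.

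Slc6a5, the neuronal glycine transporter and a marker of glycinergic neurons, had the largest tumour difference from DBS of the 8 genes tested. Probe set 1442177_at read 3825.5, 2947.9, 3251.8 and 3295.3 in DBS. It read 311.2, 415.8 and 390.0 in GNPC and ran from 3.7 through a median of 9.4 to 73.5 in tumours. All 6 tumours were below their array medians, and the 3 groups did not overlap. Slc6a5 fell 11.2-fold in tumours relative to GNPC (-3.48 ± 0.36, adjusted p = 4.69e-06) and 96.1-fold relative to DBS (-6.59 ± 0.33, adjusted p = 3.89e-10). It was also 8.60-fold lower in GNPC than in DBS (-3.10 ± 0.39, adjusted p = 2.39e-05). Because the tumours lie near or under the added 18, the size of the tumour differences moves with that constant, the DBS difference being -7.88 with 1 and -5.34 with 64 in its place, and the GNPC difference -4.72 and -2.38. Its other probe set, 1425992_at, stayed under every array median.

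Slc6a9, the glial form of the glycine transporter, changed far less. Its probe set 1417636_at read 1395.1, 718.7, 1326.8 and 1105.9 in DBS, 1288.9, 722.2 and 629.7 in GNPC, and 337.8 to 782.1 with a median of 461 in tumours. The tumour with the highest value, tumour 4, exceeded 2 of the 3 GNPC samples and 1 of the 4 DBS samples, so the groups overlapped. Against DBS it was called, 2.29-fold lower (-1.20 ± 0.25, adjusted p = 0.000679). Against GNPC the difference of -0.81 ± 0.28 had an adjusted p of 0.0261 but was under 2-fold, and its size rested on single GNPC samples. It was -1.01 and called without GNPC 3, and -0.50 (adjusted p = 0.187) without GNPC 1. With arrays scaled to a common median it was -0.57 (adjusted p = 0.0943). GNPC and DBS differed by -0.39 ± 0.30 (adjusted p = 0.314). The second probe set, 1431812_a_at, was not called in any comparison, with -0.71 ± 0.35 and -0.86 ± 0.32 for the tumours against GNPC and DBS.

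Glra1, the glycine receptor subunit of mature synapses, was measured above array medians only in DBS. Its probe set 1437139_at read 332.7, 414.5, 458.8 and 350.4 there, 54.6, 6.6 and 20.2 in GNPC, and 1.5 to 36.0 with a median of 14.3 in tumours. Tumours and GNPC overlapped and both stood below every DBS sample. Glra1 was 12.2-fold lower in tumours than in DBS (-3.61 ± 0.33, adjusted p = 1.57e-07) and 9.89-fold lower in GNPC than in DBS (-3.31 ± 0.39, adjusted p = 1.22e-05). Both folds are set against values under the array medians, and with 1 or 64 as the added constant the differences were -4.86 and -2.49 for tumours and -4.22 and -2.34 for GNPC. Tumours minus GNPC was -0.31 ± 0.36 (adjusted p = 0.503), a difference between values that were below the array medians in both groups and that turned to 0.11 without GNPC 1. The second probe set, 1422277_at, was under every array median.

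Gphn, the scaffold, was bright in all 13 samples, and its probe sets disagreed. Probe set 1426462_at read 1287.5 to 1606.4 with a median of 1397 in tumours, 2320.6, 2096.4 and 2011.8 in GNPC, and 2770.2, 2293.2, 2747.9 and 2759.5 in DBS. Tumours minus GNPC was -0.58 ± 0.11 (adjusted p = 0.000451) and tumours minus DBS -0.87 ± 0.10 (adjusted p = 1.29e-06), less than 2-fold in both cases. Probe set 1426463_at ran the same way (-0.78 ± 0.14 and -1.02 ± 0.13) and was called lower against DBS. Probe set 1430038_at ran the opposite way, at 1122.1 to 1566.6 with a median of 1240 in tumours against 670.5, 836.4 and 780.5 in GNPC and 712.1, 651.4, 707.9 and 767.7 in DBS. Every tumour exceeded every normal sample in it, by 0.72 ± 0.13 over GNPC (adjusted p = 0.000327) and 0.82 ± 0.11 over DBS (adjusted p = 1.53e-05), again under 2-fold. Which transcripts the 3 probe sets read was not tested, so no single direction is given for Gphn.

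**Figure D2:**
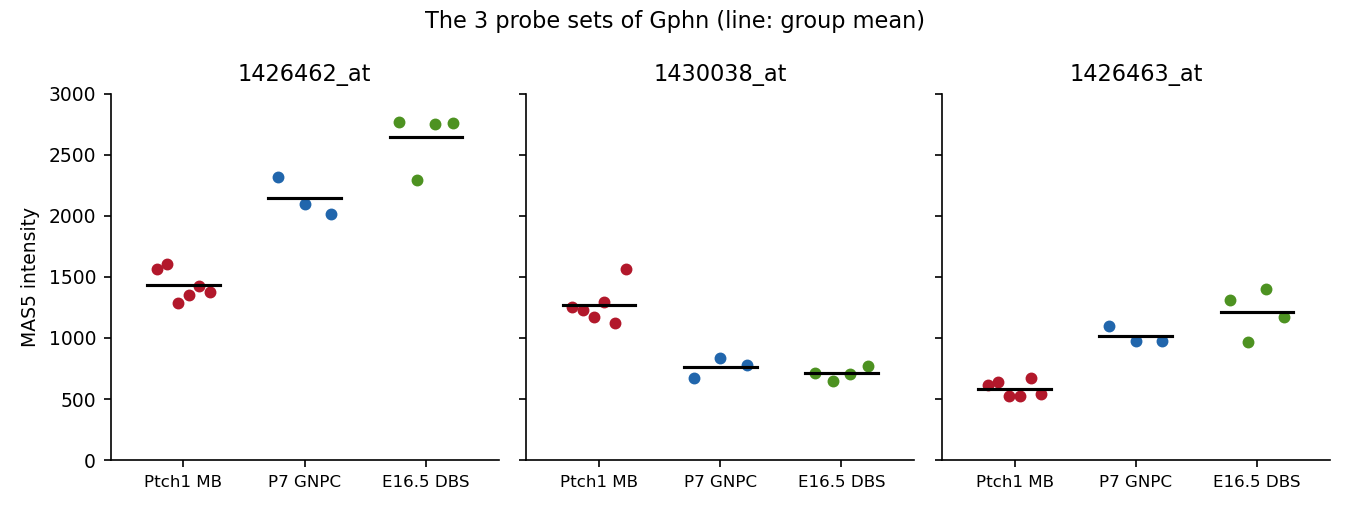
Array intensity (linear axis from 0) of the 3 Gphn probe sets in Ptch1 MB (6), P7 GNPC (3) and E16.5 DBS (4), with points for samples and lines for group means. Tumours are lowest in 1426462_at and 1426463_at and highest, at 1122.1 to 1566.6, in 1430038_at.

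Slc17a6, the vesicular glutamate transporter, stayed bright in the tumours. Probe set 1428379_at ran from 1183.5 through a median of 2715 to 3609.3 in tumours, and read 4384.0, 3428.8 and 3104.1 in GNPC. It read 8996.1, 9194.0, 9743.0 and 7773.7 in DBS. Tumours and GNPC overlapped and both stood below every DBS sample. Tumours were 3.61-fold below DBS (-1.85 ± 0.23, adjusted p = 4.75e-06) and GNPC 2.46-fold below DBS (-1.30 ± 0.27, adjusted p = 0.00154). Tumours minus GNPC was -0.55 ± 0.25 (adjusted p = 0.0865), which was not called. Probe set 1418610_at gave -0.61 ± 0.27, -1.84 ± 0.25 and -1.23 ± 0.29 for the same 3 comparisons, with the same calls.

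Slc17a7, the transporter of mature granule neurons, was read by 1 probe set, 1428986_at, which was under the array median in all 13 samples. It read 74.1, 64.7 and 56.1 in GNPC, 12.4, 16.4, 37.5 and 49.7 in DBS, and 12.1 to 58.4 with a median of 26.35 in tumours. GNPC was highest, with 1 tumour inside the GNPC range. In a fit without the intensity filter, over 18193 genes, tumours minus GNPC was -0.81 (adjusted p = 0.0648), tumours minus DBS 0.08 (adjusted p = 0.848) and GNPC minus DBS 0.89 (adjusted p = 0.0657), none of them called.

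**Figure D3:**
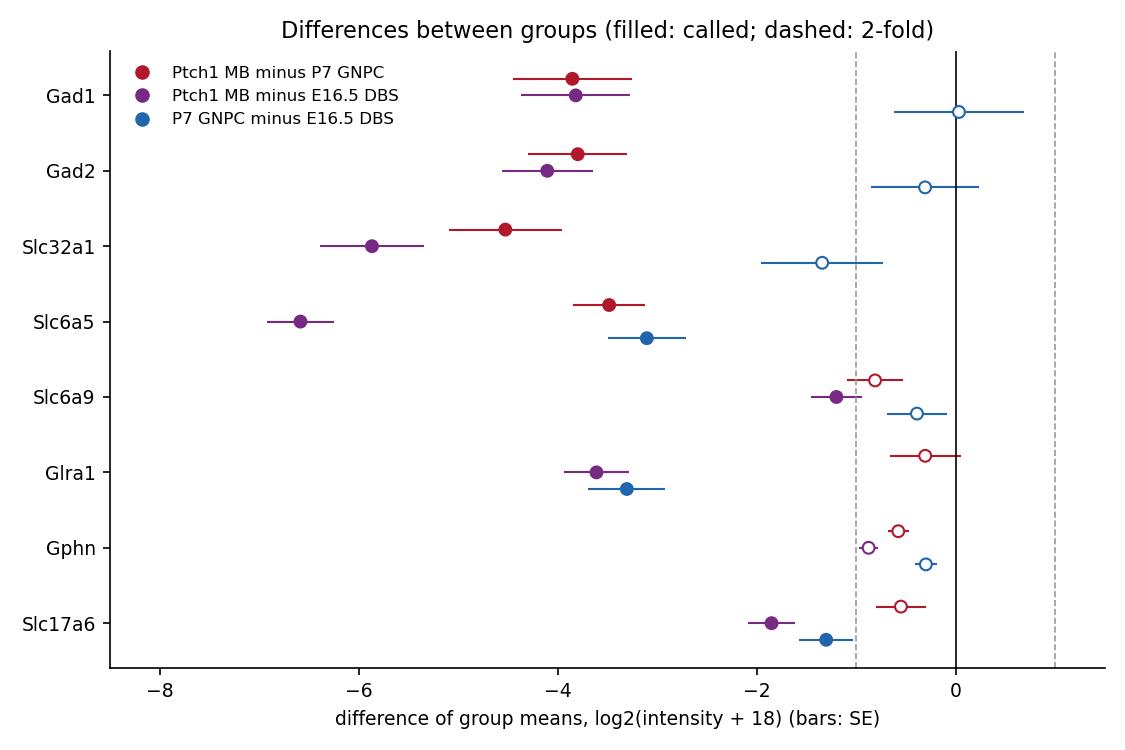
Difference between group means on the log2(intensity + 18) scale, with bars for the SE, for the 8 genes tested in each of the 3 comparisons. Filled points are called, open points are not, and dashed lines mark 2-fold. The differences of Gad1, Gad2, Slc32a1 and Slc6a5 from GNPC lie between -4.53 and -3.48, and that of Slc17a6 is -0.55.

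The inhibitory genes were then set against Slc17a6 sample by sample. Levels of different probe sets cannot be compared, so each gene was expressed as its log2 difference from its own DBS mean, and the values of Gad1, Gad2, Slc32a1 and Slc6a5 were averaged. This inhibitory mean was -6.36, -3.23, -5.86, -5.46, -5.38 and -4.27 in tumours 1 to 6, and -1.12, -1.23 and -1.19 in the GNPC samples. Slc17a6 was -2.89 to -1.30 in tumours and -1.51 to -1.02 in GNPC, so on this scale the tumours and GNPC overlapped in the excitatory gene and not in the inhibitory mean. The inhibitory mean minus Slc17a6 was -3.24 ± 1.17 (SD, n = 6) in tumours, with a range of -5.07 to -1.53, and 0.12 ± 0.21 (SD, n = 3) in GNPC. The DBS samples spread from -0.20 to 0.29 around their mean of 0. Every tumour was therefore below every normal sample in this difference, while GNPC and DBS overlapped. The use of Slc17a6 alone was chosen after seeing the data. In the planned form Slc17a7 is averaged into the excitatory side. The values were then -4.21 ± 1.08 (SD, n = 6) in tumours and -0.98 ± 0.16 (SD, n = 3) in GNPC. In that form every tumour (-6.00 to -2.77) was again below every normal sample, but GNPC (-1.13 to -0.81) and DBS (-0.29 to 0.34) did not overlap. The tumour values keep their sign in both forms and the GNPC value does not, and Slc17a7 lay under the array medians throughout. No test is given for these scores, whose genes were chosen with results of these data known.

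**Figure D4:**
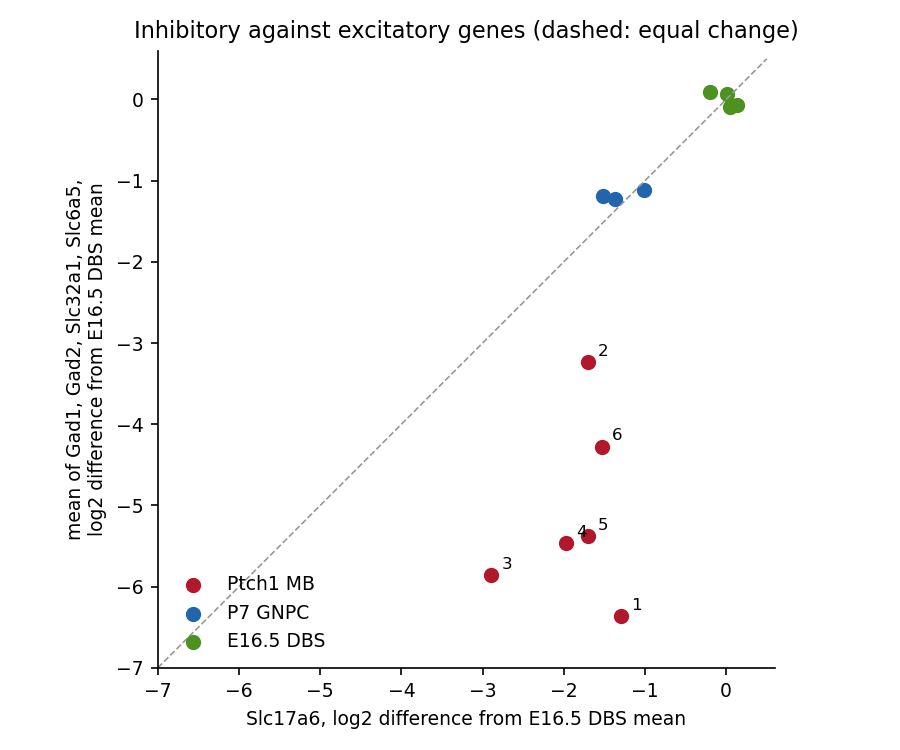
Mean log2 difference from the DBS mean of Gad1, Gad2, Slc32a1 and Slc6a5 (vertical axis) against that of Slc17a6 (horizontal axis) in every sample, with tumours numbered 1 to 6 and equal change as a dashed line. GNPC and DBS samples lie within 0.32 of the line, and the 6 tumours lie below it, at vertical minus horizontal values of -5.07 to -1.53. The use of Slc17a6 alone, without Slc17a7, was chosen after seeing the data.

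The 4 inhibitory genes did not differ between GNPC and DBS by the same amount, and only Slc6a5 was called in the fit of all 3 groups. Relative to DBS, Gad1 was 0.03 and Gad2 -0.31 in GNPC, Slc32a1 was -1.34 and Slc6a5 -3.10. Slc6a5 minus Slc32a1 was -1.76 ± 0.46 (SD, n = 3) in GNPC, from -2.28 to -1.39, and -0.72 ± 0.72 (SD, n = 6) in tumours, from -1.41 to 0.22. In tumours Slc32a1 and Slc6a5 lay mostly under the array medians, where differences between genes carry little information.

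The tumours also spread among themselves. The highest tumour exceeded the lowest 22.6-fold in Gad1 intensity, 3.05-fold in Slc17a6 and 2.32-fold in Slc6a9, genes that were above the array median in every tumour. No such ratio is given for Gad2, Slc32a1 and Slc6a5, whose lowest tumours were far under the array medians. Tumour 2 was highest and tumour 6 next in all 4 inhibitory genes. Slc17a6 was highest in tumour 1, which was the lowest of all in Gad1 and Gad2. In Gad1 the tumours read 134.3, 3038.4, 425.5, 384.6, 512.6 and 839.1 in the order 1 to 6.

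Among the tumours the summed intensity of some marker lists ran in the order of the inhibitory genes and that of others did not. Such sums weigh the brightest markers most. By the mean of log2 values, tumour 2 was the highest tumour in the Purkinje, interneuron, differentiated granule, glial and pan-neuronal lists alike. The highest was tumour 3 for granule precursor markers and tumour 1 for posterior hindbrain genes. Of 10 Purkinje cell markers 7 were measured, and their summed intensity was 2435, 13453, 2792, 3214, 4585 and 5824 in tumours 1 to 6. The sum was 42600 to 51208 in GNPC and 11373 to 12724 in DBS, where Pcp2 was below the array median in every sample. Tumour 2 was highest and tumour 6 next, as in the inhibitory genes. Calb1, the calcium-binding protein calbindin, was 32.5, 3812.1, 319.0, 441.7, 670.4 and 1267.8 in the same tumours. Gabra6, a GABA-A receptor subunit of mature granule neurons and no marker of GABA neurons, followed as well, at 6.8, 4620.9, 369.7, 724.3, 952.4 and 1810.9. It is 1 of 10 markers of differentiated granule neurons, and the sum of that list did not follow. The sum was 33125, 34463, 17294, 28070, 36349 and 28452 in tumours 1 to 6, highest in tumour 5. Summed markers of cerebellar interneurons (7 of 8 measured) were 1105.5, 5211.6, 4664.0, 1417.3, 1672.7 and 4881.2 in tumours 1 to 6, with Sst and Grm2 below the array median in all of them, against 6506 to 10946 in GNPC and 7897 to 9580 in DBS. Summed astrocyte and Bergmann glia markers (11 of 11 measured) were 23209, 38865, 41266, 22186, 27452 and 30840 in the same tumours, 65219 to 71073 in GNPC and 49727 to 58383 in DBS. Tumour 3, with an inhibitory mean of -5.86, thus had the highest glial sum and an interneuron sum close to those of tumours 2 and 6. Pan-neuronal markers (11 of 12 measured) summed to 16948 to 32374 in tumours, below GNPC at 56241 to 62584 and DBS at 94961 to 106820. The highest tumour sum was that of tumour 2. The part of these cells in the differences was not tested. In bulk tissue, fewer cells of a type and less RNA per cell cannot be told apart. Without tumour 2, Gad1, Gad2, Slc32a1 and Slc6a5 were still called lower in both tumour comparisons, at -4.33, -4.14, -4.91 and -3.76 against GNPC.

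**Figure D5:**
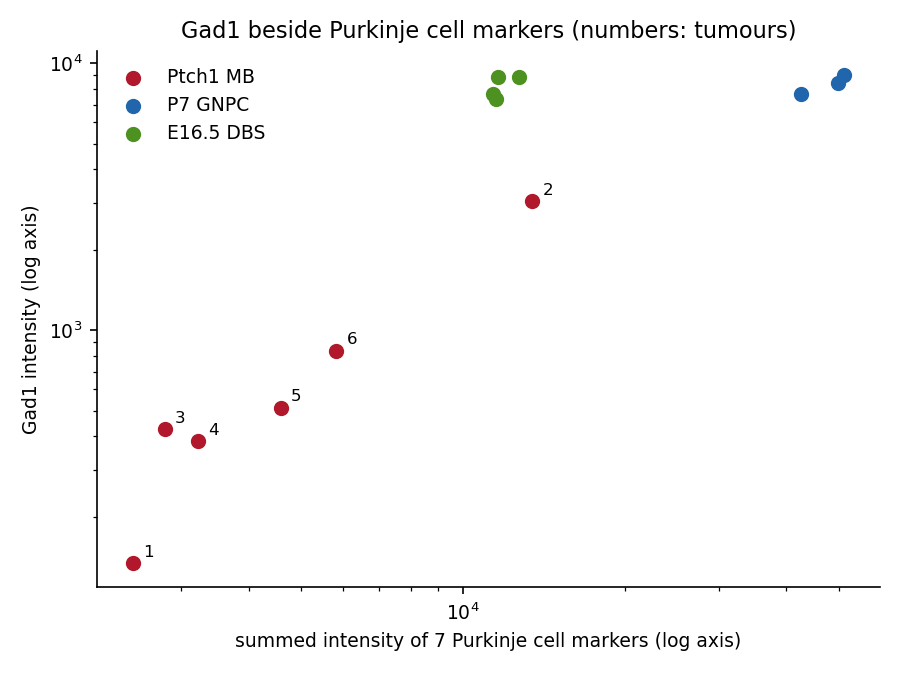
Gad1 intensity against the summed intensity of 7 Purkinje cell markers (both log axes) in every sample, with tumours numbered 1 to 6. Tumour 2 is highest on both axes among the tumours (3038.4 and 13453), and GNPC and DBS share a Gad1 range while their marker sums differ.

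Regional markers were checked against the labels. The 8 granule precursor markers summed to 48221 to 54834 in tumours, 30153 to 36579 in GNPC and 13795 to 19034 in DBS. Singly, 3 of the 8 were called higher and 1 lower in tumours than in GNPC, and 4 were not called. The shares over all genes were 6.59% higher and 14.2% lower. The 10 markers of differentiated granule neurons summed to 57242 to 61212 in GNPC, above tumours at 17294 to 36349 and DBS at 22510 to 29755. Of these 10, 6 were called lower in tumours than in GNPC, beside 14.2% of all genes. With the Purkinje and glial sums above, which were also highest in GNPC, the samples labelled as precursor cells carried markers of several other cerebellar cells, and their part in the Gad1 and Gad2 levels there was not tested. The 8 Hox genes of the posterior hindbrain summed to 21518 to 31434 in DBS, to 103 to 113 in GNPC and to 52.9 to 969.7 in tumours, where all but Hoxa2 were below the array median in every tumour.

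The counts of this and all later lists stand beside the shares of all genes called. These are 14.2% lower and 6.59% higher in tumours against GNPC, and 20.9% lower and 15.5% higher in tumours against DBS. For GNPC against DBS they are 9.68% lower and 8.73% higher. The other steps of GABA handling fell in part with Gad1 and Gad2. Of 7 genes of GABA uptake and breakdown 5 were measured, and 3 fell in tumours against both GNPC and DBS, with a median difference of -1.07 and -1.86. They were Abat, the GABA transaminase, at 580 ± 183 (SD, n = 6) in tumours, 3542 ± 175 (SD, n = 3) in GNPC and 3454 ± 450 (SD, n = 4) in DBS; Aldh5a1, which oxidises its product, by -1.07 and -1.96; and Slc6a13, a GABA transporter of meninges and liver, by -2.98 and -1.86. Slc6a13 was also higher in GNPC than in DBS by 1.12, a call that was lost without GNPC 1 and with either 1 or 64 as the added constant. With arrays scaled to a common median, 2 of the 5 rather than 3 were called lower in tumours against GNPC, and 2 rather than 0 lower in GNPC against DBS.

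Of 9 genes that supply or cleave glycine 8 were measured. Against GNPC 3 rose, 0 fell and 5 were not called in tumours (median 0.43), and against DBS 5 rose, 0 fell and 3 were not called (median 1.14). The 3 that rose against GNPC, Shmt2, Shmt1 and Psat1, are enzymes of supply. Shmt2, the mitochondrial enzyme that makes glycine from serine, was 3025 ± 935 (SD, n = 6) in tumours, 896 ± 37.5 (SD, n = 3) in GNPC and 324 ± 52.7 (SD, n = 4) in DBS, a rise of 1.68 ± 0.21 (adjusted p = 1.65e-05) and 3.11 ± 0.19 (adjusted p = 2.47e-09). Its cytosolic counterpart Shmt1 rose by 1.60 and 2.14. Psat1 of serine synthesis rose by 1.40 and 1.57, and Phgdh, the first enzyme of that pathway, rose by 1.19 against DBS only, being 0.26 against GNPC (adjusted p = 0.20). Gldc, of the glycine cleavage system, was not called in tumours and was higher in GNPC than in DBS by 1.33. These enzymes serve one-carbon metabolism in any dividing cell. Their counts per comparison were the same with arrays scaled to a common median or quantile normalised. Against DBS, 4 rather than 5 rose in tumours without tumour 5 or without DBS 2. Between GNPC and DBS, 3 rather than 2 were higher in GNPC without DBS 3.

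At the receiving side of inhibitory synapses 8 of 11 genes were measured. Against GNPC 3 fell and 0 rose, against DBS 6 fell and 0 rose, and between GNPC and DBS 3 were lower in GNPC. Glra2, the glycine receptor subunit of the embryonic brain, was 96.5 ± 66.4 (SD, n = 6) in tumours, 1469 ± 113 (SD, n = 3) in GNPC and 5456 ± 1494 (SD, n = 4) in DBS, differences of -4.02 ± 0.53 (adjusted p = 3.19e-05) and -5.87 ± 0.49 (adjusted p = 6.37e-08). Thus Glra2 was well above the array medians in GNPC, where Glra1 was not. Glra3, another subunit, fell in both comparisons (-1.53 and -4.76), though tumours and GNPC overlapped. Nlgn2, the neuroligin of inhibitory synapses, fell 2.01-fold and 2.96-fold. Slitrk3, an adhesion protein of the same synapses, fell against DBS (-2.12) with overlapping groups. Against GNPC, 2 rather than 3 of these genes were called with either other scaling, and 1 without GNPC 1 or with 64 as the added constant.

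Of 6 genes of chloride transport 5 were measured. Slc12a5, whose product KCC2 lowers chloride and makes GABA and glycine inhibitory, was 682 ± 800 (SD, n = 6) in tumours, 6456 ± 1810 (SD, n = 3) in GNPC and 16602 ± 2242 (SD, n = 4) in DBS. The tumour differences were -3.83 ± 0.63 (adjusted p = 0.000187) and -5.22 ± 0.58 (adjusted p = 1.26e-06). Slc12a2, whose product NKCC1 raises chloride, was 3293 ± 328 (SD, n = 6) in tumours and 3919 ± 393 (SD, n = 3) in GNPC, a difference of -0.25 ± 0.10 (adjusted p = 0.0518). Stk39, a kinase that acts on both transporters, fell against DBS (-1.28) and was lower in GNPC than in DBS (-1.17), a call that was lost without GNPC 1.

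On the glutamate side 11 of 14 genes of supply and uptake were measured, with 5 lower and 0 higher in tumours in each tumour comparison. Slc1a6, a transporter of Purkinje cells that is also in the Purkinje list above, had the largest falls called against each (-4.91 against GNPC and -2.65 against DBS), and was higher in GNPC than in DBS. Got1, the cytosolic aspartate aminotransferase, fell in both (-1.94 and -1.77), as did Slc1a1, a neuronal glutamate transporter (-1.31 and -2.41). Slc38a3, a glutamine transporter, fell against GNPC (-1.82), and Glud1, glutamate dehydrogenase, against DBS (-1.43). Glul, the glutamine synthetase of glia, was 8242 ± 1273 (SD, n = 6) in tumours and 7584 ± 703 (SD, n = 3) in GNPC, a difference of 0.11 ± 0.14 (adjusted p = 0.55).

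Of 19 factors that specify inhibitory neurons only 8 were measured. In tumours 5 fell, 0 rose and 3 were not called against GNPC, and 6 fell and 1 rose against DBS. Tfap2b, an interneuron factor that also counts among the interneuron markers, was 106 ± 100 (SD, n = 6) in tumours, 1638 ± 206 (SD, n = 3) in GNPC and 2671 ± 380 (SD, n = 4) in DBS. Tfap2a fell in both comparisons (-3.57 and -3.77), and Ptf1a, which specifies GABA neurons of the cerebellum, fell against GNPC (-2.69). Ptf1a itself was low in DBS, GNPC exceeding DBS by 2.50. Lhx5 fell against GNPC (-2.35), and Tal1 (-2.31) and Pax8 (-2.19) fell against DBS. The 1 that rose was Lhx1, expressed in Purkinje cells, at 3418 ± 1072 (SD, n = 6) in tumours, 2212 ± 170 (SD, n = 3) in GNPC and 1044 ± 222 (SD, n = 4) in DBS. It was above DBS by 1.66 ± 0.21 in tumours (adjusted p = 5.15e-06) and by 1.09 in GNPC, and tumours minus GNPC was 0.57 (adjusted p = 0.0529).

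Factors that specify excitatory neurons were divided. Of 20, 15 were measured, of which 4 rose and 4 fell against GNPC and 8 rose and 4 fell against DBS. Atoh1, which specifies granule precursors, was 8638 ± 1944 (SD, n = 6) in tumours, 1048 ± 214 (SD, n = 3) in GNPC and 102 ± 46.5 (SD, n = 4) in DBS, a rise of 3.01 ± 0.25 (adjusted p = 6.52e-07) and 6.22 ± 0.23 (adjusted p = 2.15e-11). Pou4f1 rose by 3.42 against GNPC, and Barhl1 and Pax6 rose by 3.87 and 3.26 against DBS. Eomes, a factor of unipolar brush cells, fell against GNPC (-3.50), as did Neurog2 (-3.14), and Lmx1b fell against DBS (-3.75). With either other scaling, 5 rose and 3 fell against GNPC.

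Other transmitters were also followed, with 8 of 12 genes measured, of which 1 rose and 2 fell against GNPC and 1 rose and 6 fell against DBS. Beside 6.59% of all genes called higher and 14.2% called lower against GNPC, the counts against GNPC are too small to read as a result about this list. Th, the rate-limiting enzyme of catecholamine synthesis, was 199 ± 157 (SD, n = 6) in tumours and 39.2 ± 14.2 (SD, n = 3) in GNPC, a rise of 1.74 ± 0.38 (adjusted p = 0.00162). Ddc, which makes dopamine and serotonin from their precursors, fell against GNPC (-2.33) and DBS (-3.05). Hdc, the enzyme of histamine synthesis, fell against GNPC (-3.07). The vesicular transporters of acetylcholine, Slc18a3, and of monoamines, Slc18a2, and the serotonin transporter Slc6a4 fell against DBS (-2.61, -2.30 and -2.25), all of them from DBS means between 152 and 221. The 1 rise against DBS was that of Th (1.03, adjusted p = 0.0154), and it was lost without tumour 1, DBS 3 or DBS 4. With 64 as the added constant it was lost too, and 4 rather than 6 genes fell against DBS. Without tumour 3, 2 rather than 1 rose against GNPC.

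The genes whose pattern over the 13 samples was most like that of Slc32a1, by Pearson correlation of log2 values across 12269 other genes, were Vsnl1 (0.993), Paqr9 (0.992), Spock3 (0.991), Elmod1 (0.991) and Sncb (0.990). Gad2 was 7th in this order (0.988), Slc6a5 161st (0.961) and Gad1 173rd (0.959). For Slc17a6 they were Mrgpre (0.983), Scn3a (0.979), Fstl5 (0.978), Lhfpl5 (0.977) and Rab42 (0.976), while Slc32a1 correlated with Slc17a6 at 0.822. Fstl5 read 281 ± 120 (SD, n = 6) in tumours, 741 ± 87.6 (SD, n = 3) in GNPC and 3618 ± 111 (SD, n = 4) in DBS. For Slc17a7, under the array medians, they were Trabd2b (0.864), Pex16 (0.827), Cldn11 (0.821), Ncln (0.812) and Tmem88b (0.798). These correlations describe 3 groups of samples that differ in many genes at once and carry no test.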

How the data were processed

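RNA of 13 samples (6 Ptch1 MB, 3 P7 GNPC, 4 E16.5 DBS) was measured on Affymetrix mouse arrays with 45101 probe sets, labelled by the manufacturer's 2-cycle method per the labels' protocols. The deposited values are linear intensities. MAS5 is named per the submitters' processing notes, with no version. The values show a global scaling, with a mean of 500 on every array once 2% of values are trimmed at each end. Groups came from source names, and replicates are numbered by accession, which pairs no samples.

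The platform annotation gives 1 symbol to 34945 of the 45037 probe sets left once controls are removed. Those above their array's median in at least 3 arrays were kept, the one with the highest mean per gene, leaving 12270 genes. Intensities were tested as log2(intensity + 18), 18 being the 20th percentile of all values, in which the fold of dim genes is understated. A mean for each group was estimated from the 13 samples with limma 3.58.1 in R 4.3.3 (lmFit, eBayes with intensity trend, two-sided, 10 residual and 4.5 prior degrees of freedom), tested on simulated data. Single probe sets were fitted likewise over 25894 probe sets. The number of arrays limits the precision.

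The text names all members, up to 4 genes of each list called with the largest differences in a comparison, and the 5 genes most like Slc32a1, Slc17a6 and Slc17a7; Slc12a2, Glul, the rises of Lhx1 and Th against DBS, Lhx1 and Phgdh against GNPC, and the markers Calb1 and Gabra6, were named after their values were seen. Members and lists were chosen with earlier results of these data known.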

Additional observations from a re-analysis of the deposited data

Results flagged for a closer look

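Dixon's criterion was applied to 34 groups of 4 to 6 values, from member probe sets and from the inhibitory and excitatory scores averaged over them. Probe sets were taken as linear intensities and the scores as log2 values. In these groups 2 values stood apart from the rest of their group, which chance meets in about 1 group of 20. Gad1 (1416561_at) was 3038.4 in tumour 2, the other tumours lying between 134.3 and 839.1. The gap to the next tumour was 0.757 of the whole range, above the critical 0.625. This holds on the linear scale, and the criterion was not applied to log2 values of single genes. On the log2 scale relative to DBS, Gad1 was -1.42 in tumour 2, -3.25 in tumour 6 and -5.75 in tumour 1, the lowest. Tumour 2 also had the highest Gad2, Slc32a1 and Slc6a5 of the tumours and the highest sum of Purkinje cell markers.

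Gphn (1426462_at) was 2293.2 in the sample DBS 2, the other DBS samples lying between 2747.9 and 2770.2. The gap was 0.953 of the range, above the critical 0.829. DBS 2 was also the lowest DBS sample in 1426463_at and 1430038_at of Gphn and in both probe sets of Slc6a9 and of Gad1. The same held for 1422756_at of Slc32a1 and 1442177_at of Slc6a5. It was the highest DBS sample in 1418610_at of Slc17a6, and neither highest nor lowest in the other member probe sets tested.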

How the results depend on the processing

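Over the alternatives (pseudocount 1 or 64, no or a stricter intensity filter, arrays scaled to 1 median, quantile normalisation, mean of probe sets, multi-gene probe sets removed, no trend, only the compared groups, each sample left out), the results of single members kept both direction and call in 458 of 469 cases. In 4, none of them called, the sign turned: Gad1 between GNPC and DBS with arrays scaled to 1 median (-0.085) and without GNPC 3 or DBS 2 (-0.021 to 0.098 over the samples left out), and Glra1 between tumours and GNPC without GNPC 1 (-0.67 to 0.11). In 7 a call was gained, 4 of them with adjusted p alone, where the counts over all genes rose from 2552 to 6061 (tumours against GNPC), 4457 to 8642 (tumours against DBS) and 2259 to 5414 (GNPC against DBS). Slc32a1 gained a call between GNPC and DBS with pseudocount 64 (-1.31, adjusted p = 0.00869) and with those groups alone, and Slc6a9 between tumours and GNPC without GNPC 3. The alternatives of filter, trend, compared groups and adjusted p alone leave a member's difference unchanged, so its sign could not turn in them. A result called in neither fit counts as kept. Leaving out 1 sample gave counts of 2286 to 2665, 4395 to 4554 and 2028 to 2329. The inhibitory minus excitatory difference of GNPC from DBS reversed from -0.98 to 0.12 with Slc17a6 alone, an alternative chosen after seeing the data, because Slc17a7 lay near background. Scaling arrays to 1 median moved the median of all genes from -0.03 to 0.21 in tumours against GNPC, from 0.00 to 0.12 against DBS and from 0.04 to -0.08 in GNPC against DBS. No paired analysis was possible because the labels carry no replicate numbers. Signal near background limits Slc17a7, Glra1 outside DBS, and Gad2, Slc32a1 and Slc6a5 in tumours, and with them the size of the tumour scores.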
